A study of Caenorhabditis elegans with 2 samples.

Results

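The nuclear genome of Caenorhabditis elegans carries 128 genes annotated as tRNAs for alanine, valine, isoleucine or threonine, out of 612 nuclear tRNA genes. They were taken as every nuclear gene of biotype tRNA in the RefSeq annotation of assembly WBcel235 (ce11) whose product is one of these 4 amino acids, and comprise 34 alanine (Ala), 31 valine (Val), 29 isoleucine (Ile) and 34 threonine (Thr) genes. RNA polymerase III was mapped by ChIP-seq with an antibody named for RPC-1, its largest subunit, in whole young adult worms of the N2 laboratory strain, with the sexes pooled. There was 1 group with 2 biological replicates per the labels and no other condition, so the results below are levels and counts without tests. The authors' peak lists were used: a thresholded list of 1320 peaks made from both replicates, and a relaxed list of 30000 regions for each replicate.

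RNA polymerase III transcribes tRNA genes from a promoter that lies inside the gene. The factor TFIIIC recognises an A box near the start of the tRNA and a B box in the T arm, it brings TFIIIB and then the polymerase to the gene, and transcription ends at a run of T after it. Each amino acid is served by several anticodon families, and in animals a first anticodon base of A is deaminated to inosine, which pairs with several codons. Because many tRNA genes exist in identical copies, the RNA alone rarely shows which copy was transcribed, whereas reads reaching into the flanking DNA can place the polymerase on a single copy. In whole worms, the share of cells in which a gene carried the polymerase and the amount per cell cannot be told apart.

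The anticodon was read from each gene's sequence, which gave 11 anticodons over 127 of the 128 genes. One gene is shown for each anticodon, to show where the promoter boxes and the anticodon lie. It is not always a typical copy of its family, and where it differs is said below the sequences. Sequences are from RefSeq on build ce11, 5′ to 3′ on the gene's own strand, and capitals mark, in order, the A box, the anticodon and the B box.
F15G9.t2, Ala-AGC, chrX:9743747-9743818, plus strand: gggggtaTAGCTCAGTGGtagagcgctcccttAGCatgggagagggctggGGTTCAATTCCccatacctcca
F44A2.t1, Ala-CGC, chrV:9318202-9318273, plus strand: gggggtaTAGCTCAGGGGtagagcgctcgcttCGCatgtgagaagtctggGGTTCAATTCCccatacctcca
F15G9.t1, Ala-TGC, chrX:9743589-9743660, plus strand: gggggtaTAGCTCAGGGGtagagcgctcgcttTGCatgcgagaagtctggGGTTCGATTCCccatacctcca
T01B4.t4, Val-AAC, chrX:16300589-16300661, plus strand: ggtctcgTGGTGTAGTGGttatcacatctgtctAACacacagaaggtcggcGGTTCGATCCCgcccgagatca
F59C12.t3, Val-CAC, chrX:16590931-16591003, minus strand: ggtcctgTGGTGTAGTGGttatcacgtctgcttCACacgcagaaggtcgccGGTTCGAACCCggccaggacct
R04D3.t2, Val-TAC, chrX:13307034-13307106, plus strand: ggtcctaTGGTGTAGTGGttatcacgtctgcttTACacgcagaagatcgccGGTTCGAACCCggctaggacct
R11B5.t2, Ile-AAT, chrX:2531361-2531434, plus strand: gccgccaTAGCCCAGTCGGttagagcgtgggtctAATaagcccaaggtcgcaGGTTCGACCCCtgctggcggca
C02B4.t1, Ile-TAT, chrX:12661164-12661247, plus strand: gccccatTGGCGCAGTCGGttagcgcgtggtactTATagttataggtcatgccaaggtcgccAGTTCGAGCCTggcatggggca
ZK563.t1, Thr-AGT, chrX:3371422-3371493, minus strand: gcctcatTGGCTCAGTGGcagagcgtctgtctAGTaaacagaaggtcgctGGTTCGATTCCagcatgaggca
F55G7.t2, Thr-CGT, chrX:11935080-11935151, minus strand: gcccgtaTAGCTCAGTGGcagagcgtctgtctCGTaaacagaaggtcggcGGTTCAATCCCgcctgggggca
T13B5.t2, Thr-TGT, chrII:1102360-1102432, minus strand: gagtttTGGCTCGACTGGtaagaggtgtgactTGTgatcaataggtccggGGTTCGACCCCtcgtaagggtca

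In C02B4.t1 the intron of 10 bases after the anticodon is kept in the printed sequence, and its B box differs from the consensus at 2 positions. T13B5.t2 is not typical of Thr-TGT. It has 1 mismatch in the A box and an exact B box and differs from the commonest Thr-TGT sequence by 25 edits, whereas the other 9 genes of the family have an exact A box and 2 mismatches in the B box. The 4 Ala-CGC genes all differ from one another, and F44A2.t1 carries 9 substitutions from C06B8.t1, the gene used as the family's reference. T01B4.t4 and R11B5.t2 are variants of their families too, with T51C and G59T in T01B4.t4 and T12C in R11B5.t2. Here and below a change gives the base of the family's commonest sequence (for Ala-CGC, of C06B8.t1), its position from 1 at that sequence's 5′ end, and the base in the gene.

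Nearly all of the 128 genes carried the polymerase. A thresholded peak overlapped 122 of them, or 95.3% (exact Clopper-Pearson 95% interval 90.1 to 98.3%), while 566 of all 612 nuclear tRNA genes had one, a background of 92.5%. By amino acid the counts were 32 of 34 for Ala, 30 of 31 for Val, 26 of 29 for Ile and 34 of 34 for Thr, with an interval of 89.7 to 100% for Thr and of 72.6 to 97.8% for Ile. The interval of each amino acid holds the background, and intervals cover counting error only. Of the thresholded peaks, the stronger 660 met 109 of the 128 genes, against 83% of all tRNA genes. They met 31 Ala, 27 Val, 20 Ile and 31 Thr genes.

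Each replicate's own list gave like counts. In a list of replicate 1's strongest 1320 regions, 117 of the 128 genes were met, beside 85.9% of all tRNA genes, and in the same list of replicate 2 the count was 122, beside 92.2%. Anywhere in the relaxed lists, replicate 1 had a region at 122 of the genes, beside a background of 90.8%, and replicate 2 at 125, beside 94.8%. M03A1.t2, K09C6.t1 and Y73B6BL.t2 had no region in either list. The other 3 genes without a thresholded peak, C36F7.t2, F47A4.t1 and Y51A2B.t1, had a region of low signal in at least one list.

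The signal value that the authors' caller gave each peak spanned a wide range within all 4 amino acids. Over the 122 genes with a peak it ran from 38.2 to 1031 with a median of 397, and over the other 444 tRNA genes with a peak from 35.8 to 1269 with a median of 361. The median was 469 for Ala, 351 for Val, 285 for Ile and 408 for Thr. Among the 20 standard amino acids these medians took place 1 for Ala, 4 for Thr, 12 for Val and 18 for Ile. In replicate 1's list the same amino acids took places 1, 3, 8 and 18, and in replicate 2's list places 1, 3, 11 and 19. The middle 50% of the genes lay between 352 and 564 for Ala, 324 and 495 for Thr, 264 and 454 for Val, and 169 and 498 for Ile, so the amino acids overlapped broadly.

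**Figure D1:**
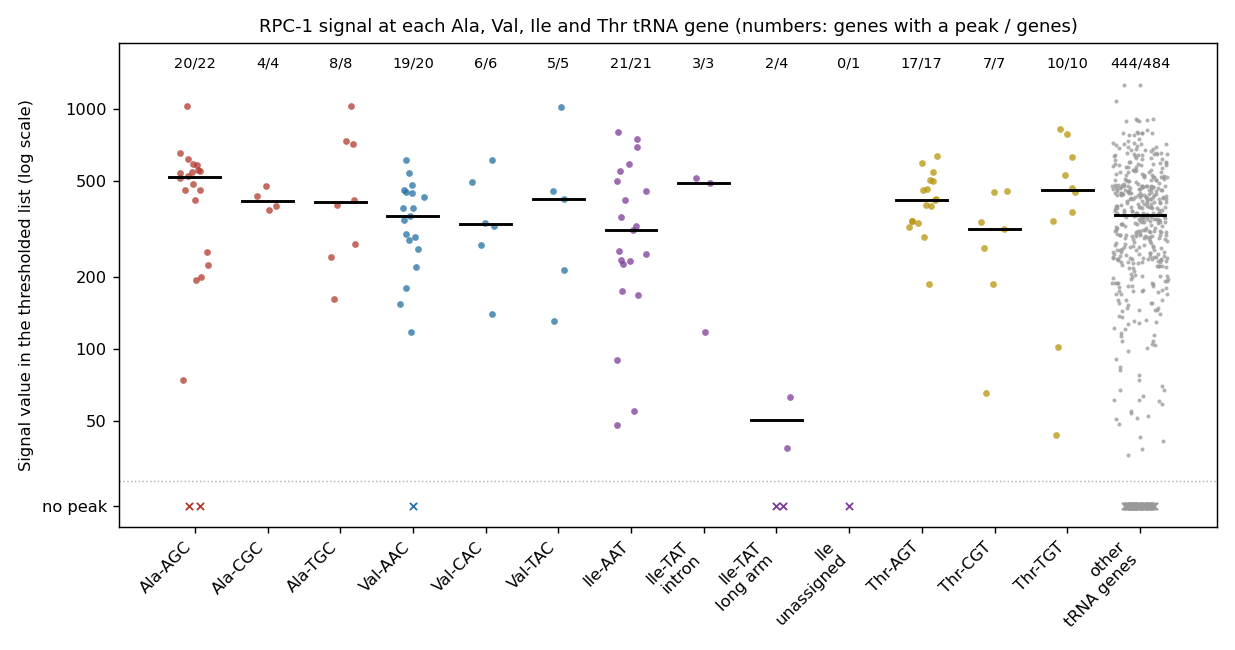
Signal value in the thresholded list (log scale) for each gene, by anticodon family, with the other nuclear tRNA genes at the right. Points are genes, bars are medians of genes with a peak, crosses are genes without one, and the numbers above give genes with a peak over all genes. Of the 4 long-arm Ile-TAT genes, those with a peak lie at 62.7 and 38.2, below the medians of the other families.

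The alanine genes fall into 22 with anticodon AGC, 4 with CGC and 8 with TGC. The AGC family had the highest median, 521, with 20 of 22 genes under a peak and values from 73.7 to 1031. The CGC genes took signals between 378 and 477 in the thresholded list, but 1 of these values is not the gene's own. The 394 of K02A4.t2 is that of an interval shared with a serine gene, with the summit 334.5 bp from the midpoint of K02A4.t2. The peak nearer to K02A4.t2 had 280. In replicate 1's list the CGC genes ranged 2.25-fold, so whether they are alike in signal was not tested. The TGC genes ranged from 161 to 1031, and all 8 carry the same sequence. The interval of the strongest alanine peak, 1031, covered 2 genes 87 bp apart in an intron of him-4, the Ala-TGC gene F15G9.t1 and the Ala-AGC gene F15G9.t2, so that its signal belongs to both. It ranked 7 in the thresholded list, 5 in replicate 1's and 9 in replicate 2's. Next came T07H6.t1, an Ala-TGC gene in an intron of lev-9, with a signal of 737 in the thresholded list, 287 in replicate 1 and 449 in replicate 2. The lowest of the alanine genes with a peak were B0491.t2 with 161 and C43G2.t2 with 73.7.

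C43G2.t2 and the alanine genes without a peak differ in sequence from the commonest Ala-AGC copy, which F15G9.t2 represents above. So do C28A5.t3 (G1C) and T07D10.t1 (6 edits), which had peaks of 224 and 193. The lowest unchanged copy, M03A1.t1, had 198. M03A1.t2 is printed by a rule for genes without a peak, and C43G2.t2 and K09C6.t1 were added after their values were seen.
C43G2.t2, chrIV:6562202-6562273, plus strand: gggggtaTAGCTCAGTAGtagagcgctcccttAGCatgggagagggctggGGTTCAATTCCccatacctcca
K09C6.t1, chrV:857325-857396, plus strand: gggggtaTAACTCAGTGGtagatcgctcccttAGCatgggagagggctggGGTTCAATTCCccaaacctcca
M03A1.t2, chrII:4565016-4565087, minus strand: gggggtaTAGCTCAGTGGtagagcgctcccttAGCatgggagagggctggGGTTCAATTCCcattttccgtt

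C43G2.t2, in an intron of best-9, carries the single change G17A, inside the A box. Its signal was 73.7 in the thresholded list, 14.6 in replicate 1 and 56.6 in replicate 2, where the Ala-AGC medians were 521, 168 and 333. K09C6.t1, in an intron of K09C6.2, has G10A in the A box together with G23T and T65A, and the longest run of T in the 30 bp after it is 3. It had no region in any list. M03A1.t2 keeps both boxes and a run of 7 T, but its last bases carry 8 substitutions from C63A to A72T, and it had no region either. Its neighbour M03A1.t1, 302 bp away with the commonest sequence, had a signal of 198. Of the 32-mers in each gene and its flanks of 200 bp, those unique in the genome made up 93.7% for C43G2.t2, 91.8% for K09C6.t1 and 89.1% for M03A1.t2, against a median of 88.4% over the 128 genes. Whether any of the base changes has a part in these values was not tested.

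The valine genes comprise 20 with anticodon AAC, 6 with CAC and 5 with TAC. Their medians were 358, 330 and 424, and all but 1 gene had a peak. The highest was R04D3.t2, a Val-TAC gene on the X chromosome, with 1025 in the thresholded list, 324 in replicate 1 and 701 in replicate 2, rank 8 in each. F59C12.t3 (Val-CAC, 616) and F12D9.t3 (Val-AAC, 614) followed. The lowest were W03C9.t1 (Val-TAC, 130), which carries 6 substitutions from the R04D3.t2 sequence, and T01B4.t3 (Val-AAC, 117).

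Variants of the valine families were mostly occupied. A7G and T66C, which lie opposite each other in the acceptor stem and keep a base pair, occur together in W03C9.t1, K10C8.t1 and F35A5.t1, and these 3 Val-TAC genes had signals of 130, 212 and 455. The same pair of positions is changed in C05G6.t1 (Val-CAC, G7C with C66G), which had 498. T01B4.t1 to T01B4.t4 stand in a row on the X chromosome, each 454 to 980 bp from its nearest tRNA gene, and share T51C and G59T. Their signals were 452, 302, 117 and 462 in that order, so neighbouring copies of 1 sequence were unequal.

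Y73B6BL.t2 was the valine gene without a peak, and its sequence is given by the rule for such genes. An insertion interrupts its A box.
Y73B6BL.t2, Val-AAC, chrIV:6470291-6470372, plus strand: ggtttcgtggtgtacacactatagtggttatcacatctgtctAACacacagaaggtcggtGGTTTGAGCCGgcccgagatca

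Y73B6BL.t2 lies in an intron of tmed-13 and is 82 bp long, while the other Val-AAC genes are 73 bp. Its best A box and B box matches have 2 mismatches each, and only the anticodon and the B box position are in capitals. No list had a region over it, at a unique 32-mer share of 97.3%.

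The threonine genes, 17 with anticodon AGT, 7 with CGT and 10 with TGT, all had a thresholded peak. The AGT family was the most even, from 185 to 639 with a median of 419. The TGT family had the median 459 and included the strongest threonine genes, R01H5.t1 with 829 in the thresholded list, 311 in replicate 1 and 519 in replicate 2, and T25B6.t2 with 787, 250 and 545. Next came ZK563.t1 (Thr-AGT) with 639. The CGT family had the median 316. The lowest values belonged to F11A5.t1 (Thr-CGT), with 65.3 in the thresholded list, 14.6 in replicate 1 and 49.5 in replicate 2, and to T13B5.t2 (Thr-TGT), with 43.5, 22.9 and 21.1. F11A5.t1 differs from the commonest Thr-CGT sequence, that of F55G7.t2 above with 455, by T46C alone, and has exact A and B boxes.

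C52E12.t2 is annotated as a threonine gene with anticodon AGT but has the body of an alanine tRNA. It is shown to be set beside F15G9.t2, and this gene was chosen after its values were seen.
C52E12.t2, Thr-AGT, chrII:7003273-7003344, plus strand: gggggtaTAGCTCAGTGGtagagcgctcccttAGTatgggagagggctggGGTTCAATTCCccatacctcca

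The change C35T, in the last base of the anticodon, is the only difference between C52E12.t2 and the commonest Ala-AGC sequence, whereas 24 edits separate it from the nearest other threonine gene. Alanyl-tRNA synthetase recognises a G·U pair in the acceptor stem. By the annotated ends, this pair was present in 31 of 34 Ala genes, in C52E12.t2 as the 1 of 34 Thr genes, and in 0 of 31 Val and 0 of 29 Ile genes. It was present in 1 of the 484 other nuclear tRNA genes. The Ala genes without it were M03A1.t2, F18G5.t1 and F18G5.t2. Both F18G5 genes carry the commonest Ala-AGC sequence, but their annotated ends are shifted, with the anticodon at base 34 rather than 33. The 31 include T07D10.t1, which is 68 bp long with its anticodon at base 29. By its annotated ends it forms 2 acceptor pairs, where F15G9.t2 forms 7, so its count rests on those ends. C52E12.t2 and the Ala-AGC gene C52E12.t3 lie 209 bp apart in an intron of unc-104, under 1 thresholded interval that holds 2 peaks. The stronger, with signal 419, has its summit at −254.5 bp from the midpoint of C52E12.t2 and at −25.5 bp from that of C52E12.t3, where negative means the 5′ side. The weaker, with signal 207, has its summit at −53.5 bp from the midpoint of C52E12.t2 and at −226.5 bp from that of C52E12.t3. In replicate 1's list they had separate regions, with 87.2 at C52E12.t2 and 137 at C52E12.t3. In replicate 2's list both lay under 1 interval with peaks of 274 and 97.7.

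The isoleucine genes were the most uneven. The 21 genes with anticodon AAT all had a peak, from 48.0 to 804 with a median of 313. C42D8.t1 had the highest signal, 804 in the thresholded list, 284 in replicate 1 and 531 in replicate 2, followed by T21B4.t1 with 749 and C02D4.t1 with 698. The lowest Ile-AAT gene, B0344.t2, had 48.0 in the thresholded list, 43.8 in replicate 2 and no region in replicate 1. It is one of 3 copies 340 to 355 bp apart in an intron of wrt-9 on the X chromosome, and the others, B0344.t1 and B0344.t3, had 89.9 and 55.0. All 3 carry the commonest Ile-AAT sequence, and their unique 32-mer shares, 86.7 to 88.5%, lay near the median of 88.4%.

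Isoleucine anticodon TAT, which pairs with the codon AUA, occurred in 7 genes of unlike build. In 3 of them an intron of 10 or 11 bp follows the anticodon, as in C02B4.t1, and all 3 had a peak. C02B4.t1 had 518 in the thresholded list, F57F5.t1 had 493 and K11C4.t1 had 118. Replicate 1 gave 198, 157 and 35.5 and replicate 2 gave 349, 332 and 82.2 in the same order, so K11C4.t1 was the low copy in both. Their spliced sequences are identical, including a B box with 2 mismatches.

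The other 4 Ile-TAT genes are 85 bp long with no annotated intron and are identical to one another. Between the anticodon and the TTC of the T arm they have 28 bp, against 17 bp in all other families, so the variable arm is long. Nematode tRNA genes that join an isoleucine anticodon to a long variable arm have been described before. In the thresholded list T22C1.t1 (chrI:7960837-7960921) had 62.7, C36F7.t3 (chrI:9563843-9563927) had 38.2, and C36F7.t2 (chrI:9562353-9562437) and F47A4.t1 (chrX:9829667-9829751) had no peak. None of the 4 was in replicate 1's strongest 1320 regions (0 of 4, exact 95% interval up to 60.2%), and T22C1.t1 and C36F7.t3 were in replicate 2's. In the relaxed lists T22C1.t1 had 9.14 in replicate 1 and 52.3 in replicate 2, C36F7.t3 had 10.1 and 28.7, and F47A4.t1 had 12.2 and 8.80. C36F7.t2 had a region in replicate 2 alone, with 15.9. All these values lie below the Ile-AAT medians of 94.6 in replicate 1 and 210 in replicate 2. The 4 genes have exact A and B boxes. Their unique 32-mer shares, 75.6 to 83.5%, are under the median of 88.4%, and the part of this in their low values was not tested.

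The nearest sequence of another product to the long-arm genes was C36F7.t1 (chrI:9558792-9558874), annotated for glutamine, at 3 edits. It had a thresholded signal of 50.8, close to that of T22C1.t1 and C36F7.t3. The last isoleucine gene without a peak, Y51A2B.t1 (chrV:18373963-18374036), has no loop with an isoleucine anticodon in its sequence, so no anticodon was assigned. It has exact A and B boxes, replicate 2 had a region there with 29.1 (rank 1152), and replicate 1 had none.

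Genes with the same sequence differed widely in signal. Of the 128 genes, 93 carry the commonest sequence of 9 families in which most copies are alike, and 91 of these had a peak, from 38.2 to 1031. Identical copies ranged 5.19-fold in Ala-AGC (17 genes with a peak), 6.40-fold in Ala-TGC (8 genes), 4.01-fold in Val-AAC (12 genes), 16.8-fold in Ile-AAT (20 genes), 3.45-fold in Thr-AGT (15 genes) and 8.21-fold in Thr-TGT (9 genes). Replicate 1's list gave 4.47, 5.84, 3.22, 8.55, 4.80 and 7.97-fold and replicate 2's list 5.75, 5.58, 4.96, 18.1, 2.98 and 7.93-fold for the same families. Some copies share a peak interval with another tRNA gene, among them the highest Ala-AGC and Ala-TGC copies, F15G9.t2 and F15G9.t1. Without such genes the range was 3.30-fold in Ala-AGC (15 genes; 3.01 in replicate 1 and 3.92 in replicate 2) and 4.58-fold in Ala-TGC (7 genes; 4.66 and 4.22). In the other 4 families it was the same with and without them. The other 18 genes of these families, with 1 or more differences, had a peak in 15 cases, with a median of 387, against 419 for the commonest copies. The 387 is the signal of the interval that C16H3.t1 and C16H3.t2 share, and W09G10.t3 and C52E12.t2 share intervals too. These medians were not taken again without such genes, so whether the changed copies are lower was not tested.

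The X chromosome holds 54 of the 128 genes, of which 53 had a peak, with a median signal of 462, against 69 of 74 on the autosomes with a median of 336. Over all tRNA genes, 260 of 276 on the X had a peak (94.2%), with a median of 452. On the autosomes 306 of 336 had one (91.1%), with a median of 302. By amino acid the X and autosome medians were 587 and 397 for Ala, 438 and 288 for Val, 334 and 240 for Ile, and 464 and 342 for Thr. Among copies with the commonest sequence, the X median was 2.70 times the autosome median in Ala-TGC (3 and 5 genes), 1.90 times in Thr-TGT (4 and 5), 1.74 times in Val-CAC (2 and 3), 1.52 times in Val-AAC (4 and 8), 1.35 times in Thr-AGT (7 and 8) and 1.14 times in Ala-AGC (9 and 8). In Ile-AAT it was 1.00 times (10 and 10), where the 3 wrt-9 intron copies count among the X genes. In Ala-TGC the X copies, from 714 to 1031 with F15G9.t1 under the shared interval at the top, and the autosomal copies, from 161 to 419, did not overlap. In the other families they overlapped.

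**Figure D2:**
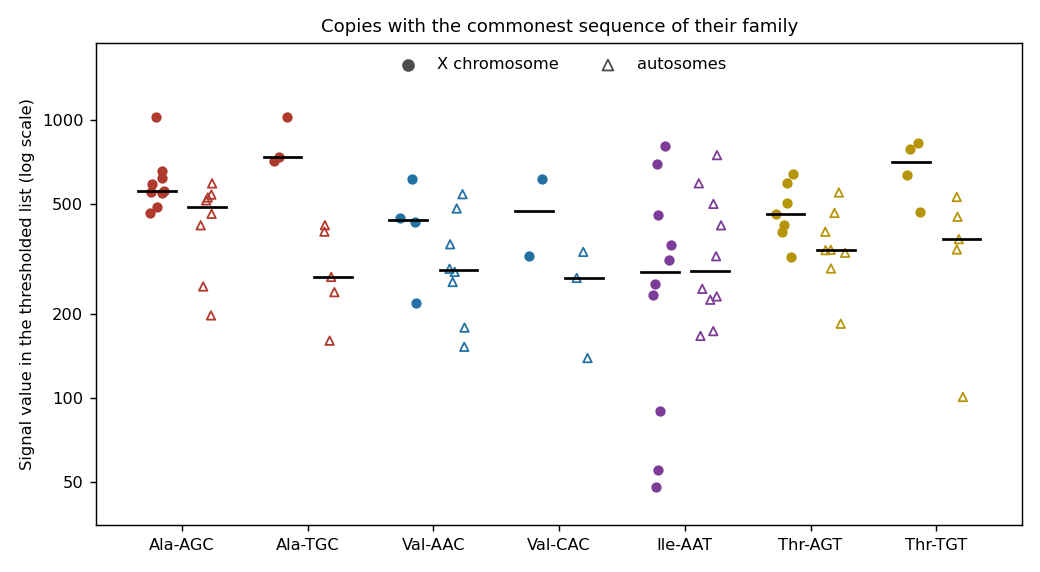
Signal value in the thresholded list (log scale) for genes that carry the commonest sequence of their family, with X-linked copies (filled circles) to the left of autosomal copies (open triangles) and bars at the medians. X medians lie above the autosome medians in 6 of the 7 families shown, and the 3 lowest Ile-AAT points are the copies in the wrt-9 intron.

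Position beside protein-coding genes and other tRNA genes varied. Of the 128 genes, 62 lay within introns, 65 between genes and 1 over an exon. Of all 612 tRNA genes, 284, 318 and 10 did so in the same order. The median signal was 343 in introns and 435 between genes, against 340 and 392 over all tRNA genes. Val genes in introns had a median of 220 and those between genes 424. Ile genes had 232 and 419 and Thr genes 373 and 453, in the same order. For Val and Ile the medians in introns were the lower ones in each replicate's list too. For Thr the replicates differed, with 140 in introns and 129 between genes in replicate 1, and 253 and 302 in replicate 2. In the thresholded list Ala genes alone had the higher median in introns, 545, against 440 between genes. Another tRNA gene lay within 500 bp of 22 of the 128 genes, against 170 of all 612. The median of the 22 was 387, and that of the 106 others was 419. Over all tRNA genes the order was the opposite in the thresholded list, with 394 for genes that had such a neighbour and 347 for the others. Replicate 2's list gave 271 and 235 over all tRNA genes. Replicate 1's list gave 106 and 111, which is the order seen in the 128 genes. Genes that share an interval take the signal of its strongest peak.

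In 10 cases a gene shared its peak interval with another tRNA gene, so its signal is not its own. Besides F15G9.t1 with F15G9.t2 and C52E12.t2 with C52E12.t3, this held for C16H3.t1 with C16H3.t2 (both Val-AAC, with peaks of 387 and 96.8 in the interval), for C16C8.t2, W09G10.t3 and W10G11.t2 (Thr-AGT, each with a lysine gene, 464 to 549) and for K02A4.t2 (Ala-CGC, with a serine gene and peaks of 394 and 280 in the interval). Replicate 1 separated C16H3.t1, with 131, from C16H3.t2, with 28.1, whereas replicate 2's list had both under 1 interval with peaks of 255 and 96.0.

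The promoter boxes were present in most of the 128 genes. An exact A box was found in 124 (96.9%), against 92.2% of all nuclear tRNA genes, and an exact B box, whose core is GGTTCNA, in 114 (89.1%), against 82.2%. Both boxes were searched as their eukaryotic consensus on both strands. The same search found the A box in 94.3% and the B box in 73.2% of annotated tRNA pseudogenes, and in 2.77% and 0.145% of windows of 72 bp across the genome. The 14 genes without an exact B box were 10 Thr genes, the 3 Ile-TAT genes with an intron and Y73B6BL.t2. The Thr genes among them had a median of 459, against 408 over all Thr genes, and R01H5.t1 (829) is one of them. Of the 4 genes without an exact A box, T13B5.t2 and C43G2.t2 had low peaks and K09C6.t1 and Y73B6BL.t2 had none. Over all nuclear tRNA genes, 38 of the 48 without an exact A box had a peak (79.2%). Their median was 237 and their highest signal 896. A run of at least 4 T followed 126 of the 128 genes within 30 bp, against 605 of all 612 nuclear tRNA genes. Of the 7 tRNA genes with a shorter run, 2 had a peak. The exceptions among the 128 were K09C6.t1 and W09G10.t3. W09G10.t3 had the signal 507 in an interval shared with a lysine gene.

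Gene by gene, the replicates ordered the genes alike. Over the 122 genes with a region in both relaxed lists, Spearman's rho between the replicates was 0.92, against 0.89 over the 549 such tRNA genes. These points share 2 libraries and include genes with a common peak, so the value is a description. After each signal was divided by the median over all tRNA genes in its list, the median difference in size between the replicates was 0.25 on the log2 scale, and 6 of the 122 genes differed more than 2-fold. C16H3.t2 was lower in replicate 1 by 2.03 on the log2 scale and T22C1.t1 by 1.37. The replicate 2 value of C16H3.t2 is the 255 of the interval shared with C16H3.t1, whose summit lies 136 bp from its midpoint. The peak nearer to C16H3.t2 there had 96.0, so the 2.03 depends on taking the strongest peak. F47A4.t1, B0344.t3, T13B5.t2 and T01B4.t3 were higher in replicate 1, by 1.62, 1.49, 1.27 and 1.03. Apart from C16H3.t2 and T01B4.t3 these genes had signals under 63 or no thresholded peak. Over the 122 genes with a peak, Spearman's rho between unique 32-mer share and signal was 0.03.

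**Figure D3:**
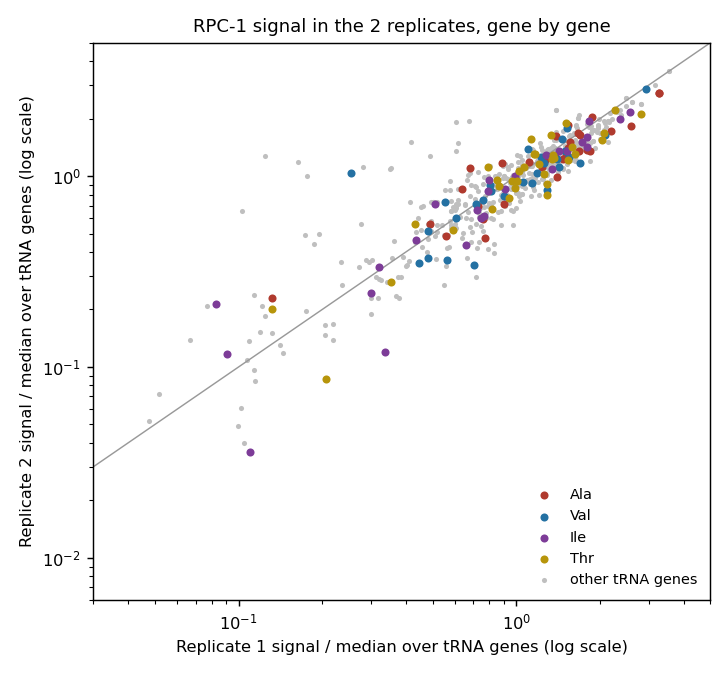
Signal in replicate 1 (horizontal) and replicate 2 (vertical), each divided by the median over all nuclear tRNA genes with a region in that list, both on log scales, with one point per gene and a line where both are equal. Most of the 122 coloured points follow the line, and the 6 that lie over 2-fold from it include the low Ile genes at the lower left and C16H3.t2 (Val) above it. The replicate 2 value of C16H3.t2 is that of an interval it shares with C16H3.t1.

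Summits fell on the gene, to either side of its middle. Among 101 genes with a peak and no other tRNA gene within 500 bp, the summit lay inside the gene in 87 (86.1%), against 83.7% of 406 such tRNA genes in all. It was 10 to 35 bp to the 5′ side of the gene's midpoint in 55 genes, 10 to 35 bp to the 3′ side in 25, within 10 bp of the midpoint in 6, and farther away in 15. The median, −14.5 bp, thus falls in the 5′ group. Over the 406 tRNA genes the counts were 222, 89, 21 and 74 in the same order. An exact A box held the summit in 37 genes and an exact B box in 13. In replicate 1's list these counts were 15 and 14 of 102 genes, and in replicate 2's 32 and 15 of 104. Over the 406 tRNA genes the thresholded list gave 145 and 36. Per amino acid the summit in the thresholded list was inside the gene in 24 of 25 Ala, 19 of 24 Val, 17 of 22 Ile and 27 of 30 Thr genes. C02B4.t1, an Ile-TAT gene with an intron, had its summit 129.5 bp to the 3′ side.

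The side of the summit was not stable between replicates. The median was 2.75 bp in replicate 1 and 1.75 bp in replicate 2, both to the 3′ side. Of 102 genes with a summit in both lists, 66 had it on the same side and 27 within 10 bp, and the median distance between the 2 summits of a gene was 21 bp.

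**Figure D4:**
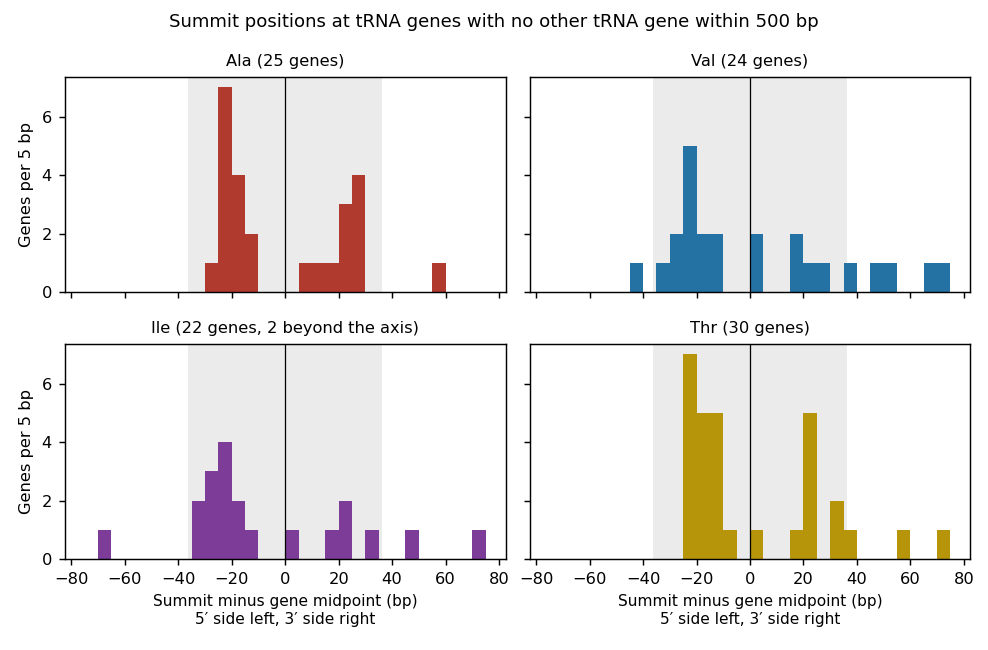
Summit position in the thresholded list relative to the gene's midpoint (bp, 5′ side left) for genes with a peak and no other tRNA gene within 500 bp, by amino acid, in bins of 5 bp, with the width of a gene of about 72 bp shaded. In each amino acid the summits form a group on the 5′ side and a smaller one on the 3′ side, with few between them.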

How the data were processed

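RPC-1 ChIP-seq peak lists from 1 group of 2 biological replicates were used. Per the submitters' list of files, the authors called relaxed regions on each replicate's alignment and on both together, each with a control library not analysed here, and applied the irreproducible discovery rate to derive the thresholded peaks. Aligner, caller and versions: not given in the sources used here. The read depth is unknown. The deposited signal value of each region is the authors' caller's, on a scale of its own in each list, and was compared only within a list. All 122 thresholded signals used for the genes equal those of the pooled list. Lists on ce10 were not used.

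Genes, sequences and introns came from RefSeq on WBcel235 with WormBase release 298. Of the nuclear tRNA genes, 5 have no amino acid in the annotation and were not counted among the 128. A gene had a peak when a peak overlapped it, and took the signal of the strongest one. The anticodon was the middle of a 7-base loop closed by a 5-base stem with at least 3 pairs that reads the annotated amino acid. Uniqueness was the percentage of 32-mers, over a gene and its flanks of 200 bp, found at 1 place in the genome. The length of 32 is a choice made here, and neither the read length nor the placing of repeated reads was stated in the sources used. Intervals are exact 95% binomial. The alternatives were the stronger 660 peaks, each replicate's own strongest 1320 regions, a cover of 50% of the gene, a summit within 100 bp, the nearest summit, isolated genes, 1 box mismatch and, added after the values were seen, genes with over 50% unique 32-mers and, for identical copies, genes that share no peak interval.

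The genes and lists were chosen with earlier results of these data known. By rule, the 3 highest and 2 lowest genes with a peak per amino acid and every gene without one were named. The Ile-TAT, wrt-9 intron, T01B4, shared-peak, C52E12, A7G, C05G6.t1, C28A5.t3 and T07D10.t1 genes were named after their values were seen. So were the genes apart between replicates. The printed sequences of C43G2.t2, K09C6.t1 and C52E12.t2 were also chosen after their values were seen. The overlap code was tested on simulated data with planted peaks. Python 3.11.15, NumPy 2.4.6, pandas 2.3.3, SciPy 1.17.1 and Matplotlib 3.10.9 were used.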

Additional observations from a re-analysis of the deposited data

How the results depend on the processing

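The counts of genes with a peak stayed within 1.5 times under all 6 alternatives. Leaving out 1 replicate gave 117 to 122 of the 128 genes, 31 to 32 for Ala, 30 for Val, 23 to 27 for Ile and 33 for Thr. The median signal relative to all tRNA genes with a peak was 1.09 over the 4 amino acids, and with 1 replicate left out 1.10 to 1.18. It was 1.28 for Ala (1.25 to 1.43), 0.961 for Val (0.934 to 1.05), 0.779 for Ile (0.824 to 0.890) and 1.11 for Thr (1.11 to 1.14). With isolated genes alone the value over the 4 amino acids was 1.21 and that of Ile 0.979, a set without the 3 wrt-9 intron copies. The side of the median summit turned from −14.5 bp to 1.75 to 2.75 bp in the replicates' own lists, and the cause was not tested. An exact or 1-mismatch A box was held by 124 or 127 genes, and the B box by 114 either way. Read depth is unknown, so a gene without a region may carry signal below detection. No paired analysis was possible because there was 1 group.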
